A study of Mus musculus with 6 samples.

Results

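The genes described here are Cyp1a1, Cyp1a2, Ahr, Por, Cyp3a11, Cyp3a13, Cyp3a25 and Cyp3a16, found by gene name in a table of 34745 genes from mouse liver. All 8 were present, and 7 of them had enough counts to enter the test among 12556 tested genes. Gene expression was measured by RNA sequencing in 3 libraries with the genotype label HKO and 3 with the label WT, for which the series text gives the mice as Sox9HKO and Sox9f/f (floxed Sox9 on both copies). All animals were 12-week old C57BL/6 mice that had undergone partial hepatectomy (PHx), the removal of part of the liver, and the sample names place collection 48 h after it. The enzyme or promoter that made the deletion is not stated in the labels, nor is the number of mice behind a library, so p-values measure the spread between libraries, which may be technical. The tissue label is liver and the cell type label hepatocyte, and the series title speaks of primary hepatocytes, while markers of other liver cells were present.

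Cytochrome P450 enzymes of the Cyp1 and Cyp3 families sit in the endoplasmic reticulum of hepatocytes and oxidise drugs, steroids and environmental chemicals. Por encodes the NADPH-dependent reductase that hands electrons to every microsomal P450. Ahr encodes the aryl hydrocarbon receptor, which pairs with Arnt and switches on Cyp1a1 and Cyp1a2 when it binds a ligand. Cyp3a genes are switched on through the pregnane X receptor (Nr1i2) and the constitutive androstane receptor (Nr1i3). Several of these genes are expressed mostly in hepatocytes around the central vein.

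The libraries held 16659778 to 21168233 counts. The targeted gene Sox9 stood at 6.34, 4.30 and 4.78 CPM (counts scaled to library size with edgeR's TMM factors) in HKO 1, 2 and 3 and at 6.94, 13.7 and 11.4 CPM in WT 1, 2 and 3, a log2 difference of -1.05 (SE 0.27, adjusted p = 0.0284) whose call was lost without HKO 2, HKO 3, WT 2 or WT 3 (adjusted p from 0.0503 to 0.0975). The library HKO 2 stood apart. HKO 2 held 72.5 CPM of Xist, the RNA of the inactive X chromosome in females, and the other libraries 0.107 to 0.333 CPM, while 4 Y-linked genes (Ddx3y, Eif2s3y, Kdm5d and Uty) summed to 72.8 CPM in HKO 2 and to 107 to 149 CPM elsewhere. The mitochondrial share of all counts was 25.9% for HKO 2 and 12.1% to 16.3% for the others. The labels do not give the sex of the mice. Hepatocyte markers (8 genes, among them Alb and Apoa1) summed to 86310 to 91100 CPM for HKO and 92420 to 114600 CPM in WT. Markers of other cells differed too: 8 of 8 Kupffer cell and macrophage genes rose, with sums of 177 to 259 CPM for HKO and 116 to 124 CPM in WT. The 7 B and plasma cell markers summed to 20.1 to 27.3 CPM against 1 to 2.36 CPM. The 8 endothelial markers summed to 152 to 444 CPM for HKO and 99.2 to 144 CPM in WT, and the 9 stellate cell and matrix markers to 122 to 525 CPM and 81.0 to 121 CPM, highest in HKO 2 in both lists. The 8 biliary markers, which include the targeted gene Sox9 itself, summed to 34.7 to 57.0 CPM for HKO and 64.6 to 171 CPM in WT. The T and NK cell and neutrophil lists stayed at or below 3.26 CPM in each library, with Cd8a and Ly6g at 0. The part of these differences in the results below was not tested, and in bulk RNA a change in the number of cells of a type and a change in RNA per cell cannot be told apart.

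The design sets Sox9HKO against Sox9f/f mice, here for the genes of the P450 system. Por, Cyp3a25, Cyp3a13 and Ahr were higher in HKO, Cyp3a11, Cyp1a2 and Cyp1a1 did not pass the test, and Cyp3a16 was too low to be tested. Thus 4 of the 7 tested genes rose and 0 fell (edgeR quasi-likelihood test, adjusted p below 0.05). Among all tested genes 12.1% were called higher and 11.2% lower. In the same 4 genes every HKO library lay above every WT library, which was so for 22.6% of all tested genes, and 44.2% did not overlap in either direction. None of the 7 was lower by DESeq2 or limma-voom or at an unadjusted p below 0.05 either. The median log2 fold change of the 7 was 0.59, against 0.02 over all tested genes. Without HKO 2, 3 of the 7 rose, Por, Cyp3a25 and Cyp3a13, while 5 rose without WT 1 and 2, Por and Cyp3a25, without HKO 1, HKO 3, WT 2 or WT 3.

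**Figure D1:**
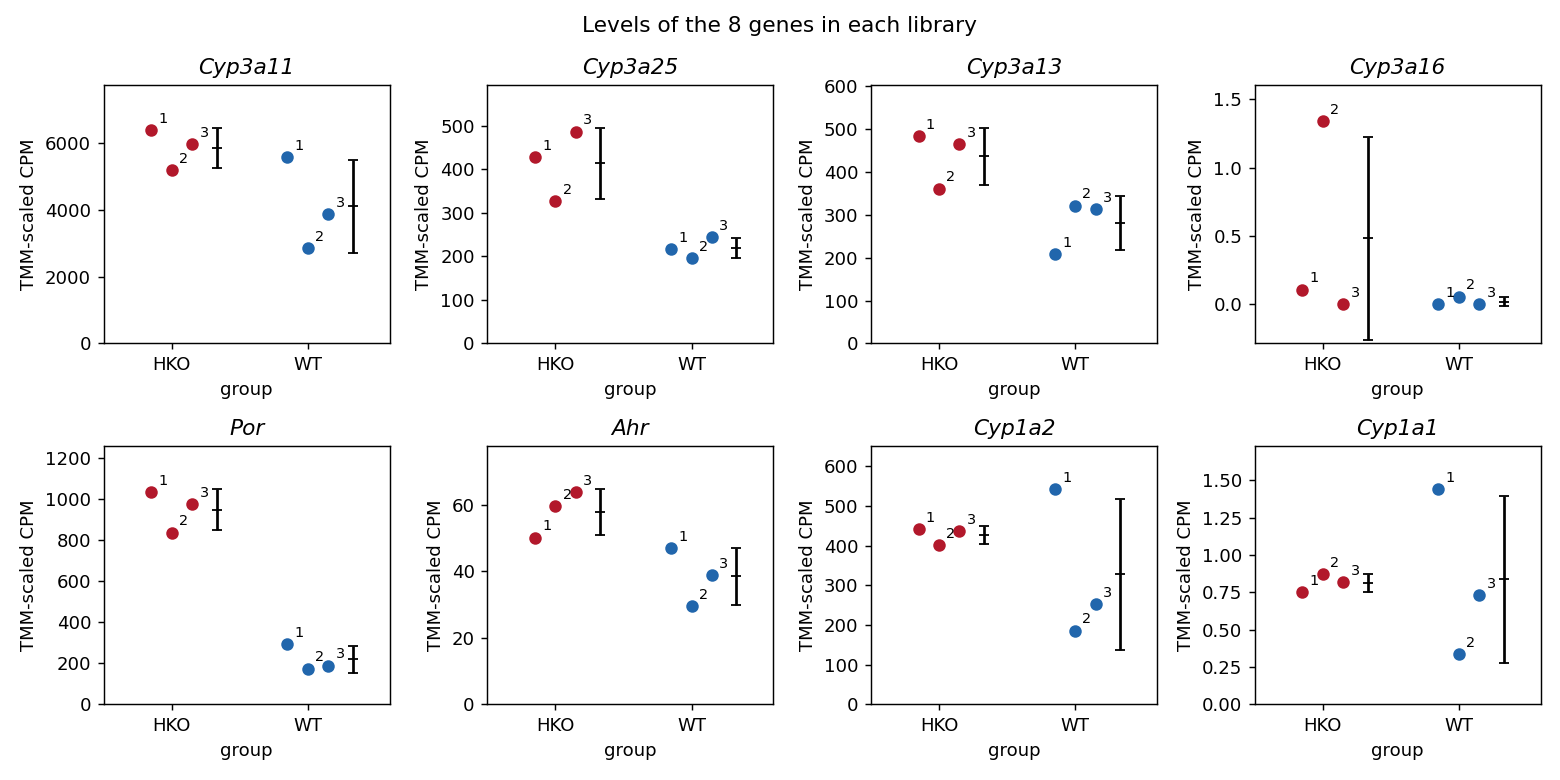
TMM-scaled CPM of each of the 8 genes by group, with each point a library labelled by its replicate number and the bar giving mean ± SD over 3 libraries. The HKO points of Por, Cyp3a25, Cyp3a13 and Ahr lie above all WT points, WT 1 lies highest of all libraries for Cyp1a2 and Cyp1a1, and Cyp3a16 is near 0 outside HKO 2.

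Por showed the largest difference of the 7 genes of this set that were tested. The gene (ENSMUSG00000005514, GRCm38 chromosome 5, 135670033 to 135735326, plus strand) was at 1033, 836 and 974 CPM in HKO 1 to 3 and, in WT 1 to 3, at 294, 174 and 188 CPM. The lowest HKO library thus lay well above the highest WT library. The group means were 948 ± 101 and 219 ± 65.6 CPM (SD, n = 3), a ratio of 4.34 or a change of 2.12 on the log2 scale (SE 0.21, adjusted p = 0.000743). Only 132 of the 12556 tested genes, 1.05%, had a higher log2 fold change. Without HKO 2 the log2 fold change was 2.20 (adjusted p = 0.000379). No stretch of 50 bases of the longest Por transcript recurs in another gene of the GENCODE M21 annotation, and its exons overlap no other gene there.

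The other genes that carry electrons to P450 enzymes moved less. That list, which includes Por, had 11 tested genes with a median change of 0.15, of which 4 rose and 1 fell. Only 2 rose without HKO 1, HKO 3, WT 1 or WT 2, and 2 fell without HKO 2 or WT 2. The median was 0.06 without HKO 1 and 0.09 without WT 3. Cyb5a, which encodes the microsomal cytochrome b5 that can pass an electron to P450 enzymes, rose from 277 ± 8.89 to 564 ± 56.3 CPM (SD, n = 3), a log2 fold change of 1.02 (adjusted p = 0.000916). Its relative Cyb5b, the form of the outer mitochondrial membrane, fell by 0.66 on the log2 scale (adjusted p = 0.00343). Among 7 tested genes that supply NADPH, the substrate of the reductase, 1 rose and 1 fell (median 0.26). The median was 0.12 without HKO 1 and 0.09 without WT 2. Without HKO 3, 2 rose and 0 fell, without WT 1, 0 rose and 2 fell, without HKO 1 or WT 2, 0 rose and 1 fell, and without WT 3 none was called. G6pdx, the entry enzyme of the pentose phosphate pathway, rose with a log2 fold change of 0.87 (adjusted p = 0.0383, lost without HKO 1, HKO 2 or any WT library, with 0.116 the highest), and its exons overlap Ikbkg on the opposite strand. Pgd, a later enzyme of that pathway, fell by 0.64 (adjusted p = 0.0181, lost without HKO 3 or WT 3, 0.0619 and 0.0505).

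In a list of 8 genes for other enzymes that draw on the reductase, more fell than rose. These 8 had a median change of -1.26 (log2), with 4 lower, 1 higher and 3 not passing. Among all tested genes 11.2% were lower and 12.1% higher. Only 3 were lower without HKO 1, HKO 3 or WT 3, and 5 were lower without WT 1. Cyp51, Cyp7a1, Cyp8b1 and Cyp17a1 of this list are also counted among the microsomal P450 genes below. In that larger set, whose enzymes also draw on the reductase, 20 of 61 tested genes rose and 9 fell. Sqle, the squalene epoxidase of sterol synthesis, was at 10.1, 11.6 and 12.9 CPM in the HKO libraries against 68.2, 54.2 and 65.0 CPM in WT (log2 fold change -2.44, adjusted p = 0.000143). Cyp51, the sterol demethylase, whose exons overlap Akap9 on the opposite strand, fell by 2.38 on the log2 scale (adjusted p = 0.000170). Cyp7a1, the rate-limiting enzyme of bile acid synthesis, fell by 1.83 (adjusted p = 0.0285), a call lost without HKO 1, HKO 3 or WT 3 (0.0877, 0.0667 and 0.0608), and the value was -1.08 without WT 1.

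Because the deposited FPKM (counts divided by gene length and library size) are per length, the P450 genes can be set against the reductase within a library. The 94 genes of the microsomal P450 families in the table summed to 8534, 6680 and 8259 FPKM in HKO 1, 2 and 3 and to 6231, 4490 and 4962 FPKM in WT 1, 2 and 3. Every HKO sum thus lay above every WT sum. Of the 61 of these genes that were tested, 20 rose and 9 fell, while 32 did not pass, and the median was 0.41 on the log2 scale. The summed P450 level per unit of Por was nevertheless lower in HKO, at 40.8, 43.3 and 41.4, than in WT, at 102, 136 and 136. The mean ratio was 41.8 ± 1.31 in HKO and 124 ± 19.8 in WT (SD, n = 3, two-sided exact permutation p = 0.1, the smallest that 3 against 3 libraries allow). Since Por itself rose more than the P450 sum, the lower ratio follows from the Por difference and is not a separate result. For Cyp3a11 alone the ratio to Por was 6.07, 6.10 and 6.01 in HKO and 18.7, 16.1 and 20.2 in WT. These are ratios of transcripts and say nothing of protein.

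**Figure D2:**
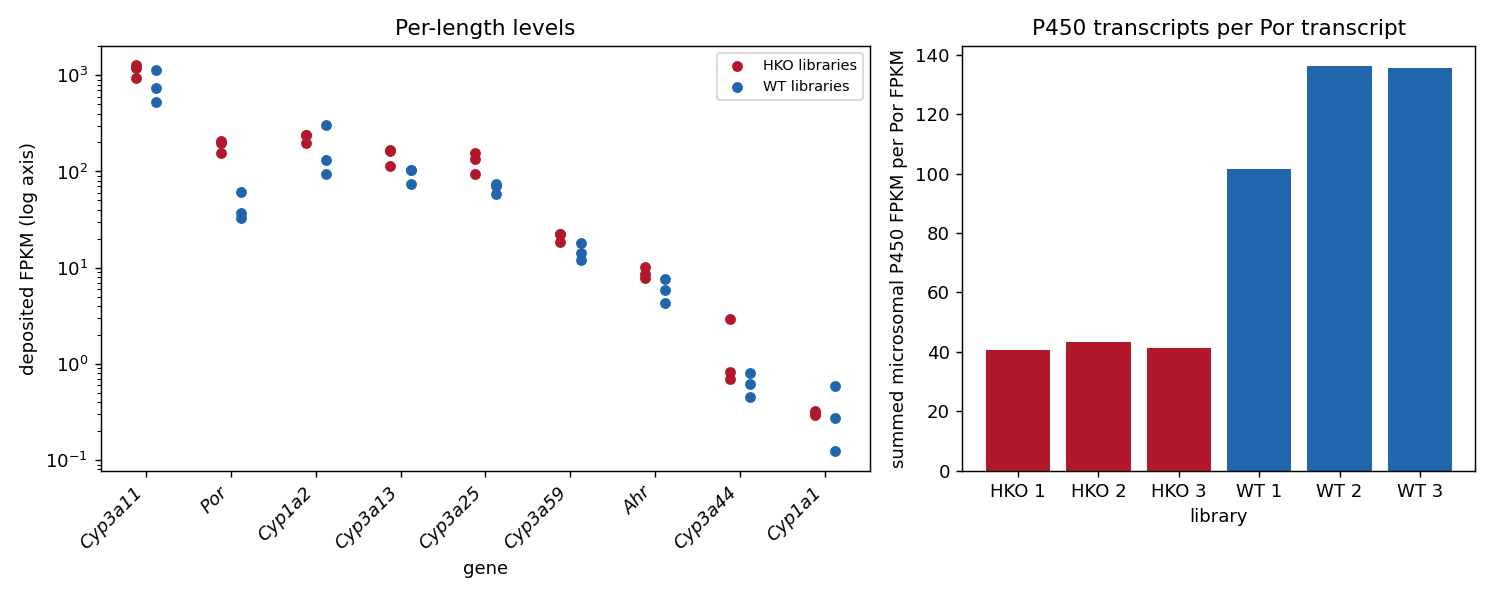
Left, deposited FPKM of 7 of the genes and of Cyp3a59 and Cyp3a44 in each library on a log axis, and right, the summed FPKM of 94 microsomal P450 genes per FPKM of Por in each library. Por has the widest gap between groups on the left, and the bars on the right stand at 40.8 to 43.3 in HKO and at 102 to 136 in WT.

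Ahr rose slightly, while Cyp1a1 and Cyp1a2 did not pass the test. The receptor gene (ENSMUSG00000019256, chromosome 12, 35497974 to 35535038, minus strand) was at 50.1, 59.5 and 63.7 CPM in HKO 1, 2 and 3 and at 46.9, 29.5 and 38.9 CPM in WT 1, 2 and 3. The groups did not overlap, but HKO 1 and WT 1 lay close. The log2 fold change was 0.59 (SE 0.18, adjusted p = 0.0457), and the call was lost without any library except WT 1 (adjusted p from 0.0595 to 0.128, and 0.0250 without WT 1). Exons of Ahr share 127 bases with the predicted gene Gm48236 on the opposite strand, and the libraries were not described as marking strand, so those reads are uncertain.

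Cyp1a1, the classical inducible target of the receptor, was barely expressed. The gene (ENSMUSG00000032315, chromosome 9, 57697613 to 57703822, plus strand) had 14, 15 and 18 counts in HKO 1, 2 and 3 and 26, 6 and 12 counts in WT 1, 2 and 3. The WT values spanned the HKO values on both sides. Its level was 0.815 ± 0.0603 CPM for HKO and 0.838 ± 0.561 CPM for WT (SD, n = 3), with a change of -0.04 on the log2 scale (SE 0.51, adjusted p = 0.961), and a difference was not detectable at this depth.

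Cyp1a2, the constitutive hepatic member, was far more abundant than Cyp1a1 per length. The gene (ENSMUSG00000032310, chromosome 9, 57676937 to 57683655, minus strand) was at 441, 402 and 436 CPM in HKO 1 to 3 and, in WT 1 to 3, at 543, 185 and 253 CPM. The HKO libraries lay close together while WT 1 lay above and WT 2 and WT 3 below them all. Over all libraries the log2 fold change was 0.38 (SE 0.35, adjusted p = 0.457), and without WT 1 it was 0.95 (adjusted p = 0.00992). Cyp1a2 was not called with any other library left out, and without WT 2 the value was 0.10 (adjusted p = 0.849). In FPKM, Cyp1a2 was at 226 ± 23.5 in HKO and 176 ± 112 in WT, and Cyp1a1 at 0.310 ± 0.0150 and 0.327 ± 0.234 (SD, n = 3).

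The share called among the remaining genes of the receptor pathway was near that of all tested genes, of which 23.2% were called in either direction. Among 8 tested targets other than Cyp1a1 and Cyp1a2, 2 rose and 6 did not pass, for a median of 0.71 on the log2 scale (0.53 without HKO 2, with 3 higher). Tiparp, a mono-ADP-ribosyltransferase that restrains the receptor, was at 8.76, 13.3 and 11 CPM in the HKO libraries against 4.72, 5.73 and 6.41 CPM in WT (log2 fold change 0.97, adjusted p = 0.0122), with exons that overlap a predicted antisense gene. Fmo2, a flavin monooxygenase gene, rose by 3.47 on the log2 scale (adjusted p = 0.000207), and is also in the list of female-biased liver genes, of which 5 of 9 rose. Nqo1, a quinone reductase gene induced by the receptor and by oxidative stress, was at 9.82 ± 4.64 CPM for HKO and 5.19 ± 0.560 CPM for WT (SD, n = 3, adjusted p = 0.0749), and is named after its values were seen. Of 10 tested partners and chaperones of the receptor 1 rose and 1 fell (median 0.32, and 0.19 without HKO 3). Without HKO 3 or WT 2, 0 were called, and without WT 3 only 1, which was lower. The chaperone genes Hsp90ab1 and Hsp90aa1 went apart, with log2 fold changes of 0.40 (adjusted p = 0.0280, lost without HKO 1, HKO 3, WT 2 or WT 3, 0.137 at the highest) and -0.62 (adjusted p = 0.0163, 0.0554 without HKO 3 and 0.0560 without WT 2). The dimer partner Arnt had a log2 fold change of 0.31 (adjusted p = 0.203).

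Cyp1a1 and Cyp1a2 lie head to head, with 13958 bases between their starts in the deposited table. For this pair and for Por, 60 bases are shown (-80 to -21, and -70 to -11 for Por). A link between these bases and the levels was not tested. Windows from 250 bases before to 50 after the start were matched by symbol in RefSeq (GRCm38.p6) for 7 of the 8 genes, and positions count back from the start. Capitals mark GCGTG, the core of the response element of the receptor, and TATAAA, each searched on both strands.
Cyp1a1, chr9:57697533-57697592, plus strand: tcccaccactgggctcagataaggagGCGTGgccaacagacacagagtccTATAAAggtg
Cyp1a2, chr9:57683676-57683735, minus strand: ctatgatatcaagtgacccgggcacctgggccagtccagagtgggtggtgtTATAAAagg
Por, chr5:135689075-135689134, plus strand: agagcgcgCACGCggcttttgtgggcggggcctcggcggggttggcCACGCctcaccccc

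The Cyp1a1 window held GCGTG at -54 and TATAAA at -30. The Cyp1a2 window held TATAAA at -29 and no GCGTG. The Por window held GCGTG at -202 on the plus strand and its reverse complement CACGC at -62 and -24, and no TATAAA. The RefSeq start of Por used for this window lies inside the gene span of the deposited table, so the start of the longest annotated form is not shown. Of 32817 promoter windows 32.4% held GCGTG and 13.6% held TATAAA, so a match is common and describes the letters only.

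Cyp3a11 was by far the most abundant Cyp3a gene. It encodes the main drug- and steroid-oxidising Cyp3a enzyme of adult mouse liver (ENSMUSG00000056035, chromosome 5, 145854426 to 145879964, minus strand). HKO 1 to 3 held 6368, 5178 and 5944 CPM of it, and WT 1 to 3 held 5575, 2845 and 3865 CPM. WT 1 lay inside the HKO range and the other WT libraries below it. The means were 5830 ± 604 and 4095 ± 1380 CPM (SD, n = 3), with a change of 0.51 on the log2 scale (SE 0.25, adjusted p = 0.172), and without WT 1 the value was 0.78 (adjusted p = 0.0430). Cyp3a11 was not called with any other library left out, and without WT 2 the value was 0.30 (adjusted p = 0.391).

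Cyp3a25 rose most among the Cyp3a genes tested and called. The gene (ENSMUSG00000029630, chromosome 5, 145977194 to 146009618, minus strand) was at 427, 326 and 486 CPM in HKO 1 to 3 and, in WT 1 to 3, at 217, 196 and 244 CPM. All HKO values exceeded all WT values, with HKO 2 the lowest of its group. The log2 fold change was 0.92 (SE 0.16, adjusted p = 0.00693), and 1.06 without HKO 2 (adjusted p = 0.000997).

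Cyp3a13 lies apart from the other Cyp3a genes, 7.42 Mb from the next of them and 2.16 Mb from Por, and is also expressed in the intestine. The gene (ENSMUSG00000029727, chromosome 5, 137892932 to 137921619, minus strand) was at 483, 361 and 465 CPM in HKO 1 to 3 and, in WT 1 to 3, at 208, 322 and 313 CPM. The groups did not overlap, though HKO 2 lay near WT 2. Unlike Cyp3a11, Cyp1a2 and Por, it was lowest in WT 1. The log2 fold change was 0.64 (SE 0.19, adjusted p = 0.0460), and the call was lost when HKO 1, HKO 3 or any WT library was left out (adjusted p from 0.0665 to 0.129), while without HKO 2 the value was 0.76 (adjusted p = 0.0207).

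**Figure D3:**
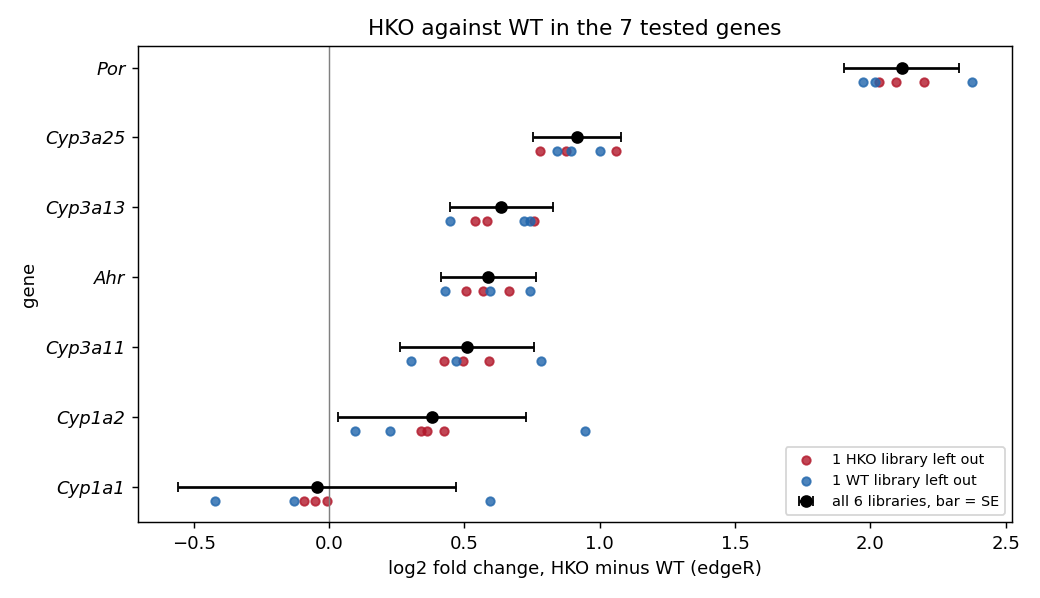
Log2 fold change of HKO minus WT for the 7 tested genes (black, bar is the SE) and the same value with 1 library left out (red for HKO, blue for WT). Por stays between 1.97 and 2.38 and Cyp3a25 between 0.78 and 1.06, while Cyp1a2 runs from 0.10 without WT 2 to 0.95 without WT 1.

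Cyp3a16, a gene of fetal and newborn liver that is also higher in females, was close to absent. The gene (ENSMUSG00000038656, chromosome 5, 145436309 to 145469723, minus strand) had 2, 23 and 0 counts in HKO 1, 2 and 3 and 0, 1 and 0 counts in WT 1, 2 and 3. Nearly all counts thus came from HKO 2. A count of 0 allows a level of up to 0.137 CPM in HKO 3, 0.167 CPM in WT 1 and 0.183 CPM in WT 3, limits that cover counting error only. No fold change is given, since the HKO value rests on a single library.

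Relatives of Cyp3a16 stood out in the same library. Cyp3a41a, a female-biased gene, had 302 counts (17.6 CPM) in HKO 2 and 0 in the other 5 libraries. Its near-identical copy Cyp3a41b had 2 counts in HKO 2 and 0 elsewhere, and since 93.7% of the 50-base stretches of Cyp3a41a recur in Cyp3a41b, the split between them is uncertain. Cyp3a44 was at 6.11 CPM in HKO 2, at 1.34 and 1.55 CPM in HKO 1 and 3 and at 0.833 to 1.63 CPM in WT, with a change of 1.27 on the log2 scale (SE 0.62, adjusted p = 0.173). HKO 2 is also the library with Xist. In the list of female-biased liver genes 5 of 9 tested members rose, and the median was 1.27 on the log2 scale. Without HKO 2 it was 0.69, with 5 higher and 1 lower, and 3 were higher without WT 3. The median was 2.03 without WT 1. Cyp2a4, a female-biased steroid hydroxylase gene with close relatives, was at 182, 234 and 167 CPM in HKO 1, 2 and 3 and at 2.17, 0.169 and 0.305 CPM in WT (log2 fold change 7.75), so this difference was present without HKO 2. Its exons overlap Gm42375 on the opposite strand. Acot3, an acyl-CoA thioesterase gene whose exons overlap others, had a log2 fold change of 3.31. Of 19 male-biased genes 9 fell and 3 rose (median -0.44), with 6 higher without HKO 2 and 2 without WT 3. Selenbp2, a selenium-binding protein gene, had a log2 fold change of -2.82 (adjusted p = 0.000214). The major urinary protein genes Mup11 and Mup7, which have near-identical copies, stood at -2.48 and -2.24. Among 4 tested genes of fetal and neonatal liver, edgeR, DESeq2 and limma-voom called 0 and 0 had an unadjusted p below 0.05 by edgeR, while 1 was lower without HKO 2.

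**Figure D4:**
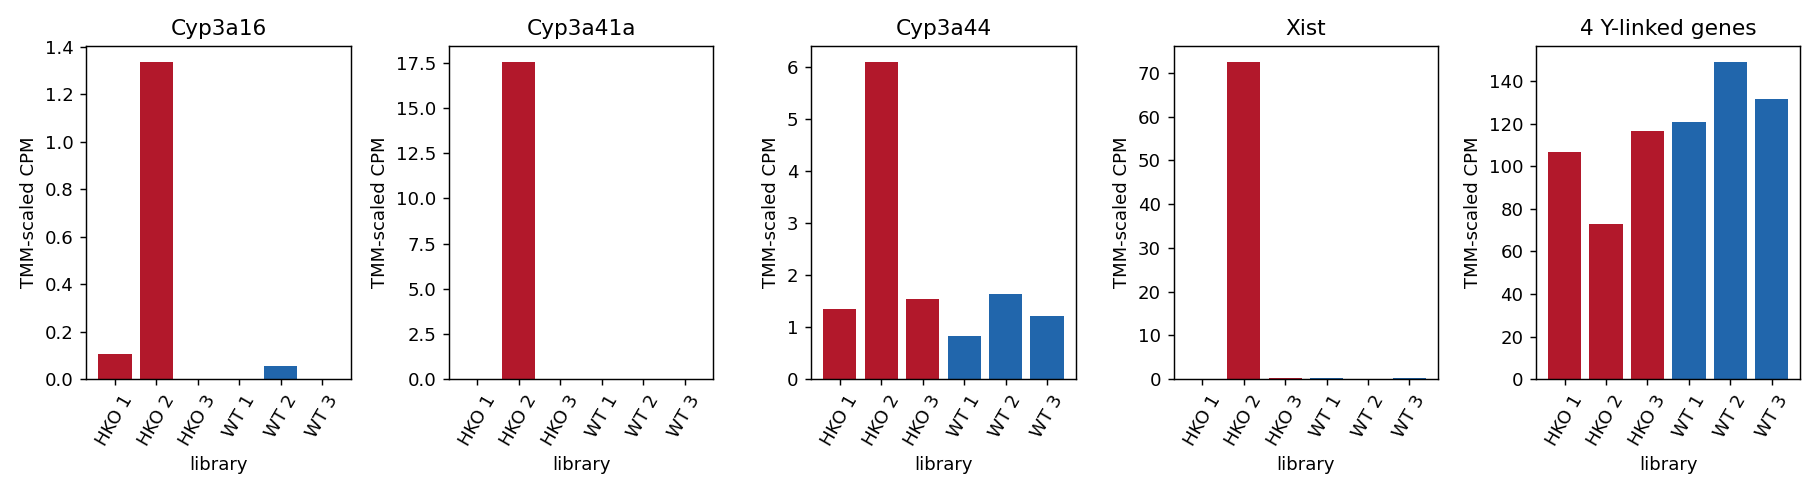
TMM-scaled CPM in each library of Cyp3a16, Cyp3a41a, Cyp3a44, Xist and the sum of Ddx3y, Eif2s3y, Kdm5d and Uty. HKO 2 is highest for the first 4 and lowest, at 72.8 CPM, for the Y-linked sum.

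The makeup of the Cyp3a transcripts was alike in the HKO libraries and varied in WT. Cyp3a11 took 79.6%, 79.8% and 77.9% of the summed Cyp3a FPKM in HKO 1, 2 and 3 and 87.6%, 75.2% and 79.4% in WT 1, 2 and 3. The difference of the means was -1.61 percentage points (two-sided exact permutation p = 0.9), within the spread of WT, and it was 1.82 without WT 1. Cyp3a13 took 9.69% to 10.6% in HKO and 5.68% to 14.8% in WT, and Cyp3a25 7.90% to 10% and 5.35% to 8.17%. The summed level was 1595, 1178 and 1538 FPKM in HKO and 1308, 707 and 931 FPKM in WT, with WT 1 inside the HKO range. Cyp3a59, a neighbour of Cyp3a25, rose from 38.5 ± 6.01 to 55.9 ± 2.76 CPM (SD, n = 3, log2 fold change 0.54, adjusted p = 0.0206), a call lost without HKO 1, HKO 3, WT 2 or WT 3 (0.0619 to 0.0831). Cyp3a57 had a single count, in HKO 1.

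By mean FPKM in HKO the order was Cyp3a11 (1136 ± 173), Cyp1a2 (226 ± 23.5), Por (188 ± 29.3), Cyp3a13 (148 ± 29.7), Cyp3a25 (127 ± 31.1), Ahr (8.82 ± 1.15), Cyp1a1 (0.310 ± 0.0150) and Cyp3a16 (0.262 ± 0.400). The neighbours from Cyp1a2 to Cyp3a25 lay within the sum of their SDs of each other, as did Cyp1a1 and Cyp3a16. In WT the order was Cyp3a11 (805 ± 312), Cyp1a2 (176 ± 112), Cyp3a13 (94.3 ± 17.3), Cyp3a25 (67.0 ± 8.21), Por (43.6 ± 15.4), Ahr (5.92 ± 1.62), Cyp1a1 (0.327 ± 0.234) and Cyp3a16 (0.0104 ± 0.0180). In WT the gaps from Cyp3a11 to Cyp1a2 and from Cyp3a13 to Cyp3a25 exceeded the sum of the SDs, while Cyp1a2 and Cyp3a13, and Cyp3a25 and Por, lay within it. Por thus stood above Cyp3a13 and Cyp3a25 in HKO and below both in WT.

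The Cyp3a genes fall into families of near copies, which bears on the counts and on the promoters. Over the aligned bases of the longest transcripts, Cyp3a25 and Cyp3a59 were 97.0% identical and shared 25% of the 50-base stretches of Cyp3a25. Cyp3a11 was 94.9% identical to Cyp3a41a and 92.1% to Cyp3a16, and 14.8% of its 50-base stretches recur in some other gene. Cyp3a13 shared none. The handling of reads that fit several genes is not stated in the labels, so the values of Cyp3a25 and Cyp3a59, and the few counts of Cyp3a16 and Cyp3a44 beside the far more abundant Cyp3a11, are uncertain. In the 250 bases before the start, Cyp3a25 and Cyp3a59 were 94.8% identical, Cyp3a16 and Cyp3a44 92.9%, Cyp3a11 and Cyp3a16 76.6% and Cyp3a11 and Cyp3a25 55.6%.

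Bases -180 to -121 are shown for Cyp3a11, for Cyp3a25 and its near copy Cyp3a59, and for Cyp3a16, Cyp3a44 and Cyp3a41a, whose level was highest in HKO 2. Cyp3a13 is not shown, as it held neither hexamer marked here. Capitals mark AGGTCA and AGTTCA, hexamers bound by nuclear receptors such as the pregnane X receptor, or their reverse complements TGACCT and TGAACT.
Cyp3a11, chr5:145879975-145880034, minus strand: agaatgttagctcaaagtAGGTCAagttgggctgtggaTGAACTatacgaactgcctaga
Cyp3a25, chr5:146009739-146009798, minus strand: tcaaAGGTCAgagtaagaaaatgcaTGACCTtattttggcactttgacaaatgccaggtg
Cyp3a59, chr5:146079078-146079137, plus strand: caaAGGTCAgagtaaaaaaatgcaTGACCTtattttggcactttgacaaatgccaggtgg
Cyp3a16, chr5:145469844-145469903, minus strand: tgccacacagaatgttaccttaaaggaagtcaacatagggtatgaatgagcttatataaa
Cyp3a44, chr5:145805995-145806054, minus strand: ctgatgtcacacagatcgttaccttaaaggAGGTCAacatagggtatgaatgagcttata
Cyp3a41a, chr5:145720257-145720316, minus strand: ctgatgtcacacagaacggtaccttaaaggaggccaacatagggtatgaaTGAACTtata

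The Cyp3a11 window held AGGTCA at -162 and TGAACT at -142, and that of Cyp3a25 held AGGTCA at -176 and TGACCT at -155. The RefSeq start of Cyp3a11 lies inside its gene span of the deposited table, so its positions and promoter identities refer to the RefSeq start. Cyp3a59 had the latter pair 1 base further out, at -177 and -156. Cyp3a44 held AGGTCA alone, at -150, Cyp3a41a TGAACT alone, at -130, and neither hexamer was found in the windows of Cyp3a16 and Cyp3a13. Over all windows 16.3% held AGGTCA and 14% held AGTTCA on either strand. The Cyp3a57 window held AGGTCA at -174 and TGACCT at -153, like its relatives, while the gene had a single count.

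Regulators of the Cyp3a genes were higher in part. That list had 19 tested members and a median of 0.17 (log2), and 5 rose, 1 fell and 13 did not pass. Without HKO 2, 6 rose and 1 fell, and without WT 2 or WT 3, 0 fell and the median was 0.26. Nr1i2, named outside the naming rule given below, was at 130, 114 and 135 CPM in the HKO libraries. In WT it was at 59.7, 69.4 and 66.6 CPM (log2 fold change 0.95, adjusted p = 0.00112). The Nr1i2 call held with any library left out (adjusted p at most 0.0115). Nr1i3 was at 157, 147 and 150 CPM in the HKO libraries against 80.1, 53.8 and 59.3 CPM in WT (log2 fold change 1.24, adjusted p = 0.00155), with exons that overlap Tomm40l on the opposite strand. Cebpb, a leucine zipper factor of the acute phase, rose from 27.2 ± 6.45 to 65.5 ± 13.2 CPM (SD, n = 3, log2 fold change 1.27), and its exons overlap Tmem189 on the opposite strand.

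In a list of targets of the pregnane X and constitutive androstane receptors outside the Cyp3a family, more genes rose than fell. The median of the 24 tested members was 0.54 on the log2 scale, and 10 rose, 1 fell and 13 did not pass. Among all tested genes 12.1% were higher and 11.2% lower. Aldh1a7 was the 1 that fell (log2 fold change -0.73, adjusted p = 0.00300). The counts rising were 7 to 13 with a library left out, lowest without WT 3 and highest without WT 1, where the median was 1.01, and the median was 0.27 without WT 2. Alas1, the rate-limiting enzyme of the heme that every P450 carries, was at 1042, 810 and 1043 CPM in the HKO libraries against 215, 145 and 152 CPM in WT (log2 fold change 2.50, adjusted p = 0.000298), with exons that overlap a predicted antisense gene. Abcc3, a basolateral export pump of bile acids and conjugates, rose from 75.9 ± 4.85 to 212 ± 19 CPM (SD, n = 3, log2 fold change 1.48), and Cyp2b10, the classical target of the constitutive androstane receptor, from 2.50 ± 0.299 to 6.39 ± 0.624 CPM (log2 fold change 1.36). The Ugt1a genes in this list share exons with one another, so their separate values are uncertain.

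Several of these genes varied among the WT libraries in a common order. Relative to the WT mean of log2 CPM, Cyp1a2 stood at 0.88, -0.67 and -0.22 in WT 1, 2 and 3, Cyp3a11 at 0.50, -0.47 and -0.03, and Por at 0.47, -0.29 and -0.17. The median of 14 tested genes of the zone around the central vein was at 0.54, -0.46 and -0.13 in the same libraries, and that of 16 genes of the zone around the portal vein at -0.47, 0.42 and 0.14. WT 1 was thus high for the former and low for the latter, and WT 2 the reverse. The part of this spread in the results was not tested. Between genotypes 2 of the 14 pericentral genes rose and 2 fell, and 8 of the 16 periportal genes rose and 1 fell, with medians of 0.17 and 0.64. With a library left out, 0 (without WT 3) to 7 (without WT 1) pericentral genes rose, and the pericentral median was -0.03 without WT 2, 0.10 without WT 3, 0.27 without HKO 2 and 0.46 without WT 1. The periportal count was 5 without HKO 3 or WT 3. Cyp2e1, the ethanol-oxidising P450, rose with a log2 fold change of 1.07 (adjusted p = 0.0128, and 0.0684 without WT 3). Rhbg, an ammonium transporter gene that shares exon bases with Gm38392, fell by 2.32. Lgr5, the receptor of R-spondins, had a log2 fold change of -1.85, a call lost without HKO 1, HKO 3, WT 1 or WT 3 (adjusted p from 0.0531 to 0.1), and the value was -1.03 without WT 1. Among periportal genes Etnppl, Pck1 and Asl, enzymes of phosphoethanolamine breakdown, gluconeogenesis and the urea cycle, rose with log2 fold changes of 2.49, 2.01 and 1.95.

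The genes whose 6 values lay nearest to a member were found by the root mean square difference of log2 CPM relative to the WT mean, over 7219 genes of at least 10 CPM. Nearest to Cyp1a2 was Glul, glutamine synthetase of the pericentral hepatocytes, at a difference of 0.056, with 492, 159 and 234 CPM in WT 1, 2 and 3 and 390, 337 and 406 CPM in HKO. Cyp2c29 (0.127) and Npr2 (0.147), a natriuretic peptide receptor gene, followed. Nearest to Por was Acaa1b, a peroxisomal thiolase gene, at 0.060, and Ehhadh, an enzyme of peroxisomal fatty acid oxidation, lay at 0.112, with log2 fold changes of 2.17 and 2.21. Nearest to Cyp3a11 were Kmt2b, a histone methyltransferase gene, at 0.114, Rnf145, a ubiquitin ligase gene, at 0.131 and Slc16a10, an aromatic amino acid transporter gene, at 0.143. All 6 libraries and their depths are shared by these values, and the genotype difference is part of each pattern. Exons of Glul, Npr2 and Acaa1b overlap Teddm2, Gm12473 and Dlec1 on the opposite strand, and Cyp2c29 shares exon bases with Cyp2c53-ps.

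**Figure D5:**
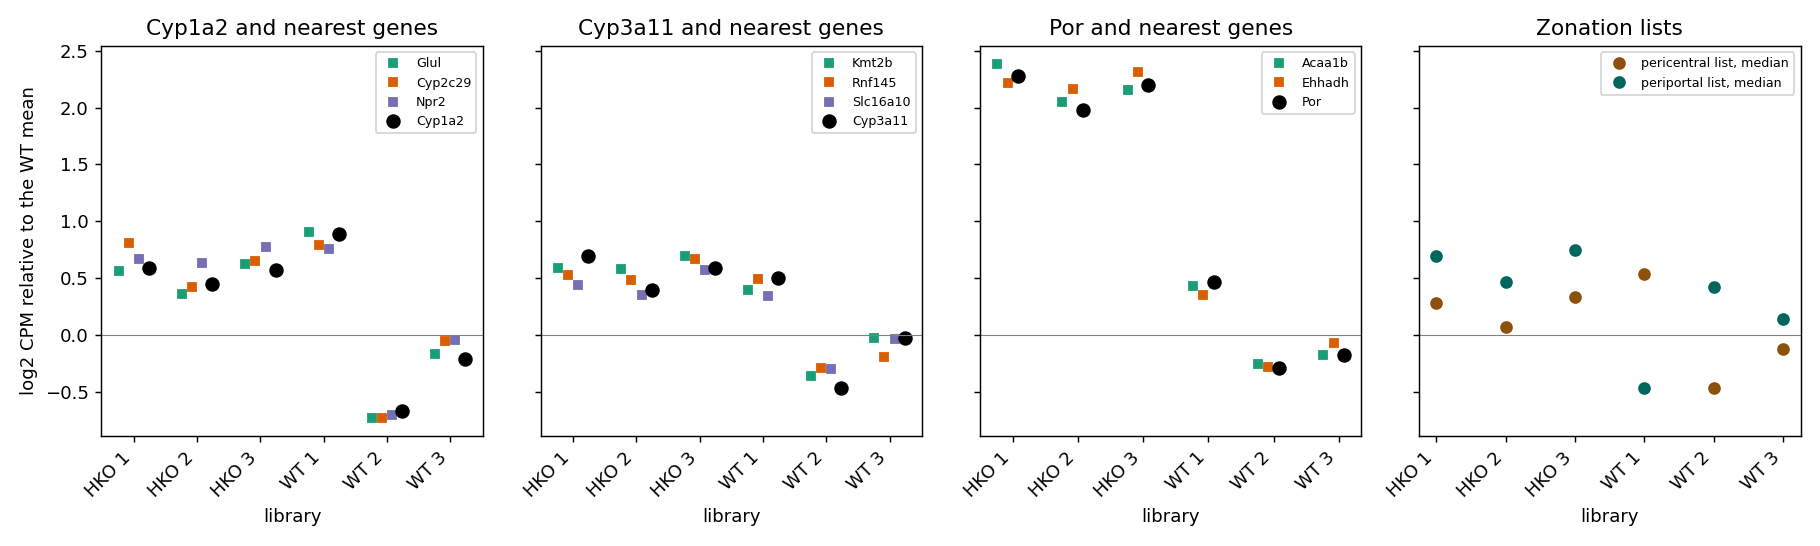
Log2 CPM relative to the WT mean in each library for Cyp1a2, Cyp3a11 and Por (black circles) with the genes named as near to each (coloured squares), and the medians of the pericentral and periportal lists. Cyp1a2 and Glul are highest in WT 1 and lowest in WT 2, the zonation medians lie on opposite sides of 0 in WT 1 and WT 2, and the Por values of HKO lie between 1.98 and 2.28.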

How the data were processed

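The authors deposited 1 table with a read count and an FPKM per gene and library, per the file headers. The submitters' processing notes name HISAT2 2.0.4, StringTie 1.3.0 and the builds mm10 and GRCm38.p4, without roles or settings. The deposited FPKM equalled count over column total over 1 length per gene, within 0.00185%, in the 9308 genes that reached 50 counts in all libraries. Counts were analysed with edgeR 4.0.16 in R 4.3.3: filterByExpr on the groups, TMM scaling, quasi-likelihood F-test on 6 libraries (3 HKO, 3 WT) without a block, Benjamini-Hochberg adjustment over 12556 genes, called below 0.05. SE is the absolute log2 fold change over the square root of F. The procedure was tested on simulated data. FPKM were used for levels between genes and for ratios, without scaling. The members and lists were chosen with earlier results of these data known. From each of 14 lists up to 3 called genes of largest absolute log2 fold change are named (a gene in 2 lists under either), and for Cyp1a2, Cyp3a11 and Por the 3 nearest genes. Some genes that this rule picks are not reported here. All 258 list entries were matched by symbol. The small intestine markers (5 genes, Sis, Lct and Cdx2 at 0) summed to 74.1 to 90.4 CPM in HKO and 48.1 to 54.0 CPM in WT. A planned comparison of proteins was replaced by transcripts of GENCODE M21 (same build, 50-base stretches, global alignment by Biopython 1.88). Alternatives were RLE, upper-quartile or no scaling factors, mitochondrial genes left out, no filter, DESeq2 1.42.0, limma-voom (limma 3.58.1), a replicate block and each library left out.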

Additional observations from a re-analysis of the deposited data

How the results depend on the processing

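Por and Cyp3a25 kept their direction and their call under all 14 alternatives, with log2 fold changes of 1.97 to 2.38 and 0.78 to 1.06. The count of the 8 genes called higher was 4, and it was 2 with upper-quartile factors, 2 with the replicate block and 2 to 5 with a library left out, the 5 without WT 1, and none was lower in any. Ahr also lost its call with upper-quartile factors and with library totals alone (adjusted p = 0.0550 and 0.0669), and Cyp3a13 with RLE and upper-quartile factors (0.050003 and 0.0555). Cyp1a1 changed sign with limma-voom (0.17) and without WT 1 (0.60), and with the replicate block (0.0942), within -0.42 to 0.60 over the left-out libraries, each far from its threshold. Over all genes 1516 were higher and 1401 lower, and 722 to 1589 and 682 to 1546 with a library left out, fewest without WT 3. The P450 level per Por differed by -82.7, by -45.1 on CPM, where length is not divided out, and by -94.1 to -76.8 with a library left out. The Cyp3a11 share differed by -1.61 percentage points, and by -4.35 to 1.82 with a library left out, the sign changing without WT 1. Same-numbered deviations correlated at -0.0019, 0.0025 and 0.072, and the others at -0.076 to 0.056. These values show no clear pairing by replicate number but cannot exclude it. With the block Ahr and Cyp3a13 were not called (adjusted p = 0.0646 and 0.0758). The P450 ratio by paired differences gave an exact sign-flip p of 0.25, the smallest that 3 pairs allow. The causes of these changes were not tested. The counts of Cyp1a1 and Cyp3a16, at most 26 per library, limit what can be seen in them.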
